A study of Mus musculus with 7 samples.

Results

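The Myc, Max and Mxd network was examined in LSK cells, which are sorted from mouse marrow as Lin-Sca1+Kit+ and hold the stem cells and multipotent progenitors. The network comprised 10 genes chosen by symbol (Mycn, Myc, Mycl, Max, Mxd1, Mxd3, Mxd4, Mxi1, Mnt and Mga), and all 10 were found among the 24421 gene symbols counted. LSK cells were taken 8 weeks after transplant from lethally irradiated BoyJ recipients, 1 mouse per sample. Donor marrow was Ddx41+/flox with RosaCreERT2 (Ddx41+/- after excision, 3 samples, replicates 6 to 8) or Ddx41+/+ with RosaCreERT2 (4 samples, replicates 1 to 4). Every recipient was given tamoxifen at 1 mg per injection, so the controls share the recombinase and the drug. RosaCreERT2 acts in all donor cell types, the ages of the mice are not given in the sources used here, and the sort as labelled names no antigen that separates donor cells from those left in the host.

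Myc, N-Myc and L-Myc, the products of Myc, Mycn and Mycl, are basic helix-loop-helix leucine zipper transcription factors. Each binds DNA at the E-box as a dimer with Max and activates genes of growth, ribosome production and metabolism. The Mxd proteins (Mxd1, Mxd3, Mxd4 and Mxi1), Mnt and Mga bind Max as well and repress transcription at E-boxes, the Mxd proteins and Mnt through the Sin3 corepressor. In mouse bone marrow, Myc and N-Myc are known to act together in stem cell proliferation and survival.

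Total counts ranged from 32234499 to 43751290 per sample, and the members held between 55 counts (Mycl in Ddx41+/- replicate 7) and 21823 counts (Myc in Ddx41+/+ replicate 1). Levels are given as CPM, each count scaled to the size of its library by TMM. Ddx41, the targeted gene, was at 97.9 ± 6.43 CPM (SD, n = 4) in Ddx41+/+ samples and 67.3 ± 2.63 CPM (SD, n = 3) in Ddx41+/- samples, and shares 467 of its 2687 exon bases with the antisense gene Gm46416. Ddx41+/- replicate 7 stood apart on the first principal component of the 500 most variable genes, at 35.7 against -12.9 to 0.24 for the other samples. Of the genes whose proteins defined the sort, Kit was at 466.4 and 467.7 CPM and Ly6a, which encodes Sca-1, at 20.9 and 20.8 CPM in Ddx41+/+ and Ddx41+/- samples. Of the T and NK cell markers, Nkg7 was at 253.4 and 264.9 CPM, whereas Ncr1, Klrb1c, Cd3e and Cd8a were below 2 CPM on average in both genotypes, and Hba-a1, Hba-a2, Hbb-bs and Hbb-bt, the adult globin genes, had 0 counts in all samples.

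The sequence 250 bases before to 50 after the transcription start was available from RefSeq (GRCm38.p6) for 9 members, all but Myc, and is shown where it holds a motif bound by the network or by a cell cycle factor. The E-box (CACGTG, its own reverse complement) was found in the promoters of Max, Mnt and Mxd4, in 7.15% of all 32851 promoters of this length and in 9.79% of those of tested genes. A core of the E2F motif (TTTGGCGC, searched on both strands) was found 2 times in the Mycn promoter, in 0.514% of all promoters and in 0.954% of those of tested genes. The promoter of Mycn (chr12:12941787-12942086, minus strand) is given with both E2F cores in capitals, 183 and 168 bases before the start. It is followed by 60 bases around the E-box of Max (chr12:76962219-76962278, minus strand), Mnt (chr11:74830774-74830833, plus strand) and Mxd4 (chr5:34187897-34187956, minus strand), with the E-box in capitals. All are written 5′ to 3′ on the strand of the gene.
Mycn: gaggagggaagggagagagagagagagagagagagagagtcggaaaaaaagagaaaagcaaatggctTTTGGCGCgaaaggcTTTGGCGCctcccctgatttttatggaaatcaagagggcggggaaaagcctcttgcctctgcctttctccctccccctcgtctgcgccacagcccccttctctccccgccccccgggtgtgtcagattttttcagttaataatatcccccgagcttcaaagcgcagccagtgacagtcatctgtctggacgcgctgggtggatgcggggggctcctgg
Max: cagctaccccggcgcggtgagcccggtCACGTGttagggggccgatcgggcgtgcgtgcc
Mnt: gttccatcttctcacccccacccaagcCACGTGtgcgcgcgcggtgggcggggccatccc
Mxd4: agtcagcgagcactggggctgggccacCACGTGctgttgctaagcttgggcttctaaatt

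The levels of the members were compared first, per kilobase of exon, since counts depend on gene length. In Ddx41+/+ samples Myc was the highest at 178.7 ± 18.6 CPM per kilobase (SD, n = 4), followed by its partner Max at 33.4 ± 1.73, Mnt at 12.9 ± 1.21, Mxi1 at 9.46 ± 0.701 and Mga at 7.97 ± 1.33 CPM per kilobase. Mycn was at 7.50 ± 1.41, Mxd3 at 4.05 ± 0.373, Mxd1 at 3.63 ± 0.358, Mxd4 at 2.22 ± 0.254 and Mycl at 1.17 ± 0.125 CPM per kilobase. Of the neighbours in this order, Mxi1 and Mga, Mga and Mycn, and Mxd3 and Mxd1 overlapped in their samples, and the others did not. In Ddx41+/- samples Mycn was at 3.94 ± 0.552 CPM per kilobase (SD, n = 3), between Mxd3 at 4.16 ± 0.476 and Mxd1 at 3.92 ± 0.199, and overlapped both. Mycn was thus the sixth of the 10 genes in Ddx41+/+ and the seventh in Ddx41+/- samples, and the order of the other 9 was the same.

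Mycn was lower in Ddx41+/- LSK cells, at 52.5% of the Ddx41+/+ level, and was the only member of the 10 to pass the test. The other 9 members, among them Myc and Max, did not pass. Mycn (chromosome 12, 12936093 to 12941914 in GRCm38) was at 31.6, 21.7, 23.5 and 22.1 CPM in Ddx41+/+ replicates 1 to 4 and at 13.3, 14.6 and 11.02 CPM in Ddx41+/- replicates 6 to 8. The genotypes did not overlap, and Ddx41+/+ replicate 1 was the highest of all samples. The raw counts behind these values ranged from 743 to 1307 in Ddx41+/+ and from 489 to 523 in Ddx41+/- samples. The log2 fold change was -0.93 (SE 0.146, 95% interval -1.24 to -0.62) with an edgeR adjusted p of 0.0157, the eighth smallest p of 13340 genes. Without Ddx41+/- replicate 8 the log2 fold change was -0.83 and the edgeR adjusted p 0.0924. In sorted bulk samples, fewer cells with Mycn and less Mycn RNA per cell cannot be told apart.

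Over all 13340 genes tested, 0.217% had an adjusted p under 0.05 and 0.0975% were lower with such a p, against 1 of the 10 members. At an unadjusted p under 0.05, the share was 10.6% of all genes and again 1 member, Mycn. CPM values did not overlap between genotypes in 10.1% of all genes and in 1 member. At the last 2 thresholds the share of the members was close to that of all genes. The median log2 fold change of the members was 0.012, and that of all genes tested -0.0048.

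**Figure D1:**
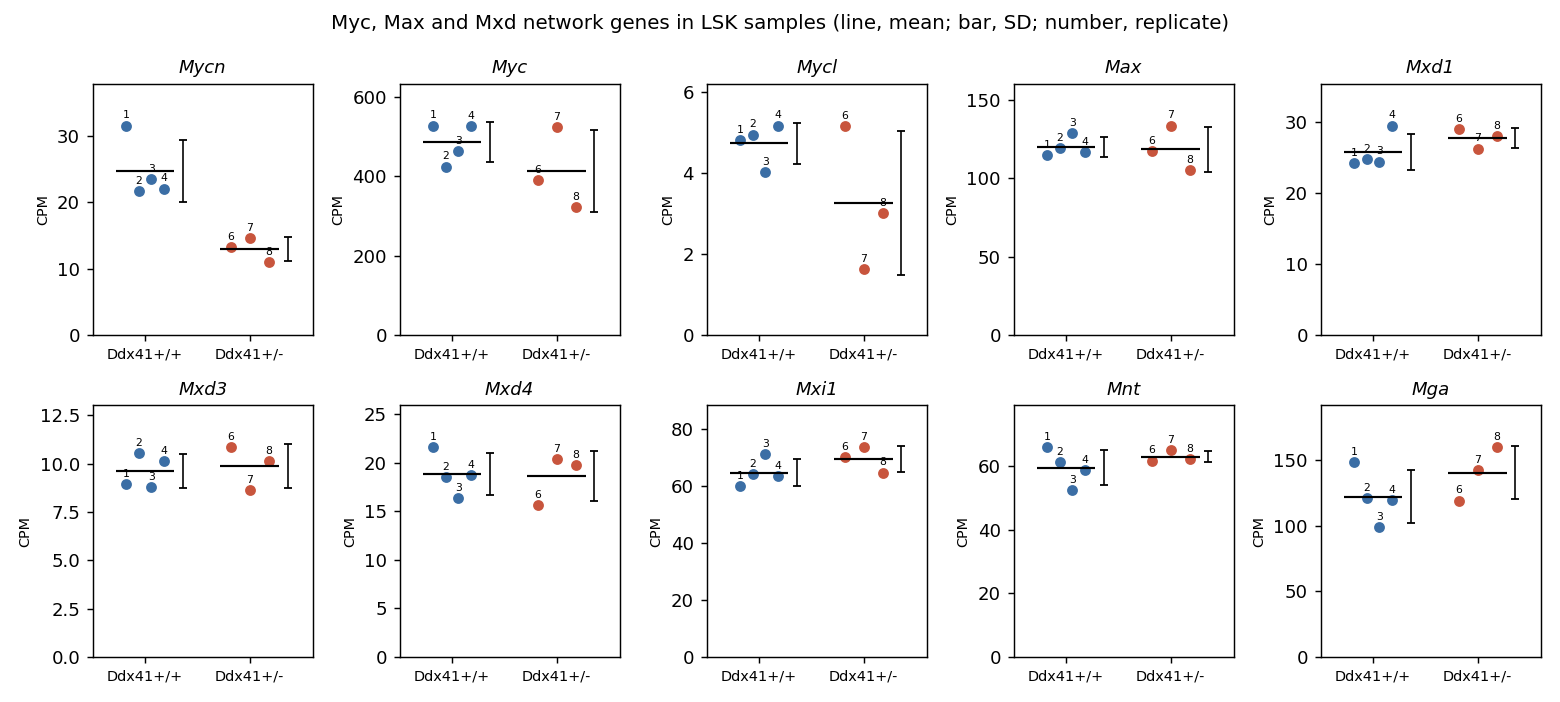
CPM (y axes, linear from 0) of the 10 network genes in the 4 Ddx41+/+ (blue) and 3 Ddx41+/- (red) samples, with each point numbered by replicate, the mean as a line and the SD as a bar. In Mycn the Ddx41+/- samples, between 11.02 and 14.6 CPM, sit below all Ddx41+/+ samples, whereas the genotypes overlap in the other 9 genes.

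Myc (chromosome 15, 61985391 to 61990374), the most abundant of the network, was at 527.6, 424.4, 463.4 and 526.5 CPM in Ddx41+/+ replicates 1 to 4 and at 390.5, 524.5 and 322.7 CPM in Ddx41+/- replicates 6 to 8. Replicates 6 and 8 were below every Ddx41+/+ sample, and replicate 7 was near the highest of them. The Ddx41+/- mean was 85.0% of the Ddx41+/+ mean, with a log2 fold change of -0.24 (SE 0.164, 95% interval -0.62 to 0.15) and an edgeR adjusted p of 0.675. Without Ddx41+/- replicate 7 the log2 fold change was -0.45, the lowest of the fits that left out 1 sample, and without replicate 8 it was -0.086.

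Mycl (chromosome 4, 122995652 to 123002485), which encodes L-Myc, was the lowest member per kilobase. It was at 4.81, 4.94, 4.01 and 5.17 CPM in Ddx41+/+ replicates 1 to 4 and at 5.15, 1.63 and 2.999 CPM in Ddx41+/- replicates 6 to 8. Replicates 7 and 8 were below all Ddx41+/+ samples, whereas replicate 6 was within their range. The coefficient of variation was 10.6% in Ddx41+/+ and 54.5% in Ddx41+/- samples, and with 55 to 203 counts in Ddx41+/- samples counting error adds to this spread. The log2 fold change was -0.53 (SE 0.302, 95% interval -1.18 to 0.11, edgeR adjusted p = 0.566). It was -1.02 without Ddx41+/- replicate 6 and -0.22 without replicate 7.

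Max (chromosome 12, 76937269 to 76962201), the shared partner with which the others bind E-boxes, was at 114.9, 119.4, 129.0 and 117.0 CPM in Ddx41+/+ replicates 1 to 4. In Ddx41+/- replicates 6 to 8 it was at 117.4, 133.7 and 105.1 CPM, so that these samples held both the highest and the lowest value. Its mean in Ddx41+/- samples was at 98.9% of that in Ddx41+/+ samples, with a 95% interval of the fold from 88.0% to 111.1% (edgeR adjusted p = 0.964). The interval of the Mycn fold, from 42.3% to 64.9%, lies below it.

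Of the Max partners that repress, Mxd1, Mxd3, Mxd4, Mxi1 and Mnt were at 98.97% to 107.9% and Mga at 115.0% of the Ddx41+/+ mean in Ddx41+/- samples, and none passed the test. Mxd1 (chromosome 6, 86647042 to 86669161), known to rise as myeloid cells differentiate, was at 24.2, 24.7, 24.4 and 29.5 CPM in Ddx41+/+ replicates 1 to 4. It was at 29.0, 26.2 and 28.001 CPM in Ddx41+/- replicates 6 to 8. The 3 Ddx41+/- samples were above 3 of the Ddx41+/+ samples and below replicate 4, with a log2 fold change of 0.11 (SE 0.0996, edgeR adjusted p = 0.746).

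Mxi1 (chromosome 19, 53310518 to 53375810), the most abundant of the Mxd genes per kilobase, was at 59.8 to 71.2 CPM in Ddx41+/+ and 64.6 to 73.5 CPM in Ddx41+/- samples (log2 fold change 0.10, SE 0.0776, edgeR adjusted p = 0.684). Mxd3 (chromosome 13, 55325168 to 55329823), which is expressed in dividing cells unlike the other Mxd genes, was at 8.78 to 10.6 and 8.63 to 10.8 CPM (log2 fold change 0.040, SE 0.149, adjusted p = 0.953). Mxd4 (chromosome 5, 34173883 to 34187720) was at 16.3 to 21.6 and 15.7 to 20.3 CPM (log2 fold change -0.017, SE 0.127, adjusted p = 0.979). For these 3 genes the ranges of the genotypes covered most of each other. Each also shares exon bases with a gene on the opposite strand, 194 bases of Mxi1 with Gm10197, 105 bases of Mxd3 with Prelid1 and 514 bases of Mxd4 with Gm42846, and reads from these bases cannot be told apart where strand was not used. The sign of the Max, Mxd3 and Mxd4 log2 fold changes turned when 1 sample was left out.

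Mnt (chromosome 11, 74830920 to 74845725), a Max partner present in resting and dividing cells alike, was at 65.8, 61.1, 52.4 and 58.6 CPM in Ddx41+/+ replicates 1 to 4 and at 61.7, 64.9 and 62.0 CPM in Ddx41+/- replicates 6 to 8. All Ddx41+/- values were within the Ddx41+/+ range (log2 fold change 0.079, SE 0.0806, edgeR adjusted p = 0.785). Mga (chromosome 2, 119897228 to 119969581), which joins Max to a variant polycomb complex, was at 148.8, 121.4, 99.1 and 119.6 CPM in Ddx41+/+ replicates 1 to 4 and at 119.2, 142.6 and 160.0 CPM in Ddx41+/- replicates 6 to 8. Its log2 fold change was 0.20 (SE 0.134, 95% interval -0.099 to 0.50, edgeR adjusted p = 0.651), with 0.098 without Ddx41+/- replicate 8, 0.114 without Ddx41+/+ replicate 3 and 0.31 without Ddx41+/+ replicate 1. Its coefficient of variation among Ddx41+/+ samples was 16.7%.

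**Figure D2:**
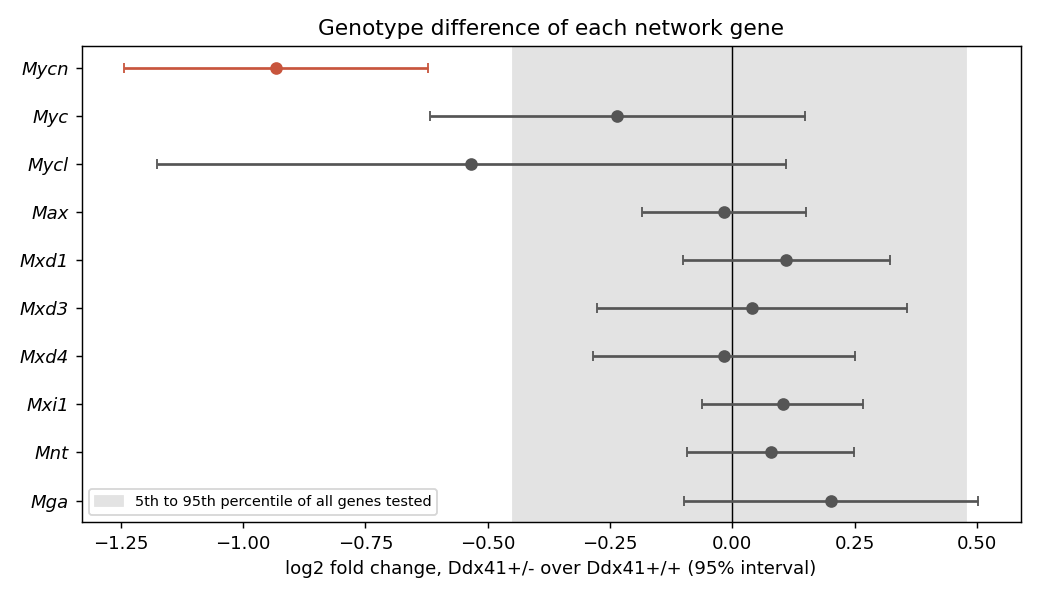
Log2 fold change of each network gene in Ddx41+/- over Ddx41+/+ samples (x axis), with bars for the 95% interval of the edgeR fit and grey for the range from the 5th to the 95th percentile of all genes tested, -0.45 to 0.48. Mycn at -0.93 (red, adjusted p under 0.05) and Mycl at -0.53 lie below the grey range, and the intervals of the 9 genes other than Mycn cross 0.

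Whether the difference in Mycn exceeded that of each other member was tested within samples, by the log2 ratio of Mycn counts to those of the other gene, which does not depend on library scaling. The ratio was lower in Ddx41+/- samples for 8 of the 9 genes, each with an exact two-sided permutation p of 0.0286, the smallest this design allows, and a BH-adjusted p of 0.0321 over the 9 ratios. The log2 ratio of Mycn to Myc was -4.31 ± 0.21 (SD, n = 4) in Ddx41+/+ samples and -4.97 ± 0.17 (SD, n = 3) in Ddx41+/- samples, a difference of -0.66. The difference was -0.90 for Max, between -1.04 and -0.90 for Mxd1, Mxd3, Mxd4, Mxi1 and Mnt, and -1.13 for Mga. The ratio to Mycl differed by -0.24, from 2.37 ± 0.31 (SD, n = 4) to 2.13 ± 0.92 (SD, n = 3), with an exact two-sided permutation p of 0.629. The ratio to Mycl was 1.36, 3.15 and 1.87 in Ddx41+/- replicates 6 to 8, against 2.09 to 2.71 in Ddx41+/+ samples, and without Ddx41+/- replicate 7 all 9 ratios were lower without overlap. With all samples, the fall of Mycn was not shown to differ from the difference in Mycl. These tests share the Mycn values and are not independent of each other. Mycn alone did not overlap between the genotypes, so for genes that differed little the smallest p follows largely from Mycn itself. The ratios are therefore not separate evidence that Mycn was lower.

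**Figure D3:**
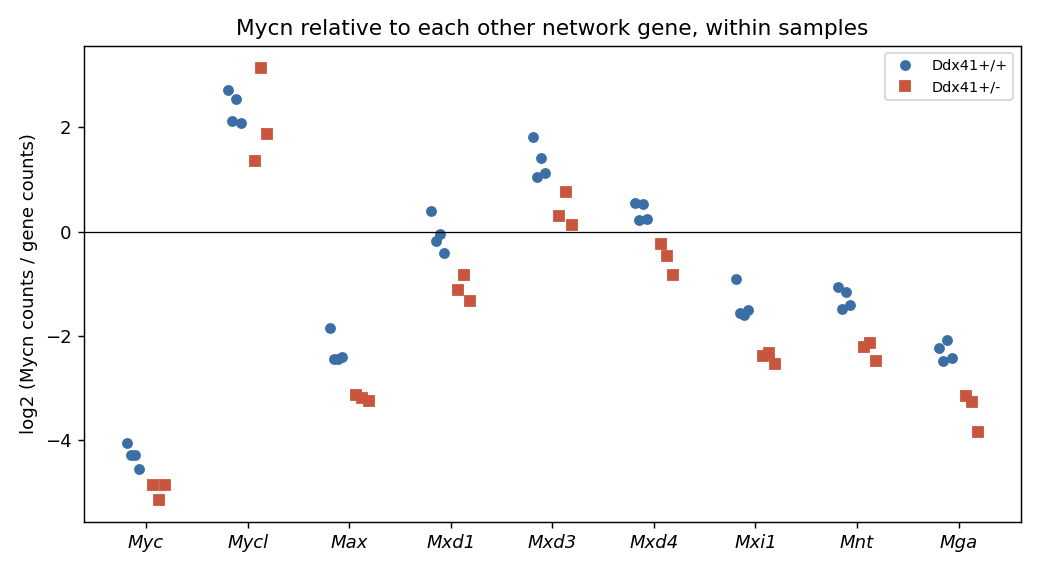
Log2 ratio of Mycn counts to the counts of each other network gene (y axis, prior count of 0.5) within each Ddx41+/+ (blue circles) and Ddx41+/- (red squares) sample. The Ddx41+/- samples lie below the Ddx41+/+ samples without overlap for 8 genes, whereas for Mycl replicate 7 lies above them at 3.15.

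As a share of the Myc family RNA per kilobase, Mycn held 4.68%, 4.02%, 3.99% and 3.32% in Ddx41+/+ replicates 1 to 4, whereas it held 2.70%, 2.24% and 2.72% in Ddx41+/- replicates 6 to 8. The genotypes did not overlap, but the difference of -1.44 percentage points had an exact two-sided permutation p of 0.0571 (BH-adjusted 0.114 over 2 shares). Myc accounted for at least 94.7% of the family in every sample and Mycl for at most 0.857%. The summed level of the 3 genes was 164.0 to 205.0 CPM per kilobase in Ddx41+/+ and 149.0, 197.9 and 122.9 CPM per kilobase in Ddx41+/- replicates 6 to 8. That of the 5 antagonists Mxd1, Mxd3, Mxd4, Mxi1 and Mnt was 30.8 to 32.7 CPM per kilobase in the Ddx41+/+ and 33.4 to 34.6 CPM per kilobase in the Ddx41+/- samples, which did not overlap and were not tested. These 5 genes held 14.8% ± 1.32 (SD, n = 4) of the RNA of antagonists and Myc family together in Ddx41+/+ samples, and 18.3% ± 3.28 (SD, n = 3) of it in Ddx41+/- samples. The genotypes overlapped in this share, with 14.9% in Ddx41+/- replicate 7 and 16.6% in Ddx41+/+ replicate 2 (exact two-sided permutation p = 0.114). The difference of 3.54 percentage points was 1.99 without Ddx41+/- replicate 8 and 5.25 without Ddx41+/- replicate 7.

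Genes that act with the network were followed by lists written from general knowledge, with earlier results of these data known. No member of the Mlx branch (3 tested), the Myc coactivators (14), the Mxd and Mnt corepressors (15), the Mga polycomb complex (11) or the Myc turnover factors (15) had an edgeR adjusted p under 0.05. At an unadjusted p under 0.05 there were 0, 0, 0, 1 and 3 genes. Over all genes tested, 0.217% had such an adjusted p and 10.6% such an unadjusted p. The median log2 fold changes of these lists were -0.017, -0.0035, -0.030, -0.019 and -0.020. Among them the smallest p was that of Pim1, a kinase that stabilises Myc, at 232.4 ± 20.8 CPM (SD, n = 4) and 189.5 ± 21.2 CPM (SD, n = 3), with a log2 fold change of -0.29 and an edgeR adjusted p of 0.203. Gsk3b, the kinase that marks Myc for degradation, was at 113.6% of its Ddx41+/+ mean (edgeR adjusted p = 0.384), and Cip2a, an inhibitor of the phosphatase that acts on Myc, at 113.1% (0.449). Of the coactivators, the chromatin remodelling subunit Actl6a was at 91.6% (edgeR adjusted p = 0.518), and the elongation factor subunits Cdk9 and Ccnt1 at 93.9% (0.666) and 115.6% (0.722). Of the corepressors, the Sin3 complex subunits Sap18, Arid4b and Arid4a were at 86.2% (0.546), 113.7% (0.600) and 106.1% (0.748). Of the Mga complex, Tfdp1, a partner of E2F proteins, was at 108.5% (0.469), Ring1, a ubiquitin ligase, at 111.7% (0.549), and Tfdp2 at 93.9% (0.695). Mlx, the Max-like partner of the glucose-sensing Mondo proteins, was at 94.7% (0.807), and its partner Mlxip at 98.8% (0.968). The other Mondo gene, Mlxipl, was below 1 CPM on average in both genotypes, at 0.263 and 0.505 CPM (0.707).

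Of 61 genes known as targets of Myc, 0 had an edgeR adjusted p under 0.05, and 4 had an unadjusted p under 0.05. Many of the 61 are genes of ribosome production, such as Ncl, Fbl and Nop56. DESeq2 and limma-voom also gave 0 of the 61 an adjusted p under 0.05. Over all genes tested the edgeR shares were 0.217% adjusted and 10.6% unadjusted, so that 0 calls among 61 genes say little about the targets. Of the 61 genes, 26 had a log2 fold change above 0 and 35 below 0, with a median of -0.015 and a range from -0.16 to 0.29. The 3 with the smallest p were Tfrc, the transferrin receptor, at 122.0% of the Ddx41+/+ level (adjusted p = 0.176), the ribosome assembly factor Utp20 at 117.8% (0.380) and Mphosph10, a nucleolar protein, at 111.3% (0.428). Summed over the list the level was 15074.7 to 15635.0 CPM in Ddx41+/+ and 15405.2 to 16088.1 CPM in Ddx41+/- samples. The E-box was found in a promoter of 16 of the 55 target genes with a promoter sequence (29.1%) and in 11.6% of the tested genes with one. Among 12 genes repressed by Myc, 9 were tested and 0 passed (1 at an unadjusted p under 0.05), with a median log2 fold change of -0.062. Their summed level was 732.6 to 766.7 CPM in the Ddx41+/+ and 708.3 to 726.4 CPM in the Ddx41+/- samples, without overlap. The smallest p there was that of Ndrg1, a stress-responsive gene, at 88.2 ± 3.72 CPM (SD, n = 4) and 71.8 ± 4.05 CPM (SD, n = 3), or 81.4% (edgeR adjusted p = 0.0983). Cdkn1c, the cell cycle inhibitor of quiescent stem cells, was at 65.0% (adjusted p = 0.633), with 1.46 to 4.30 CPM in Ddx41+/+ and 1.07 to 2.36 CPM in Ddx41+/- samples, and Itgb1, an adhesion receptor, at 95.8% (0.753).

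**Figure D4:**
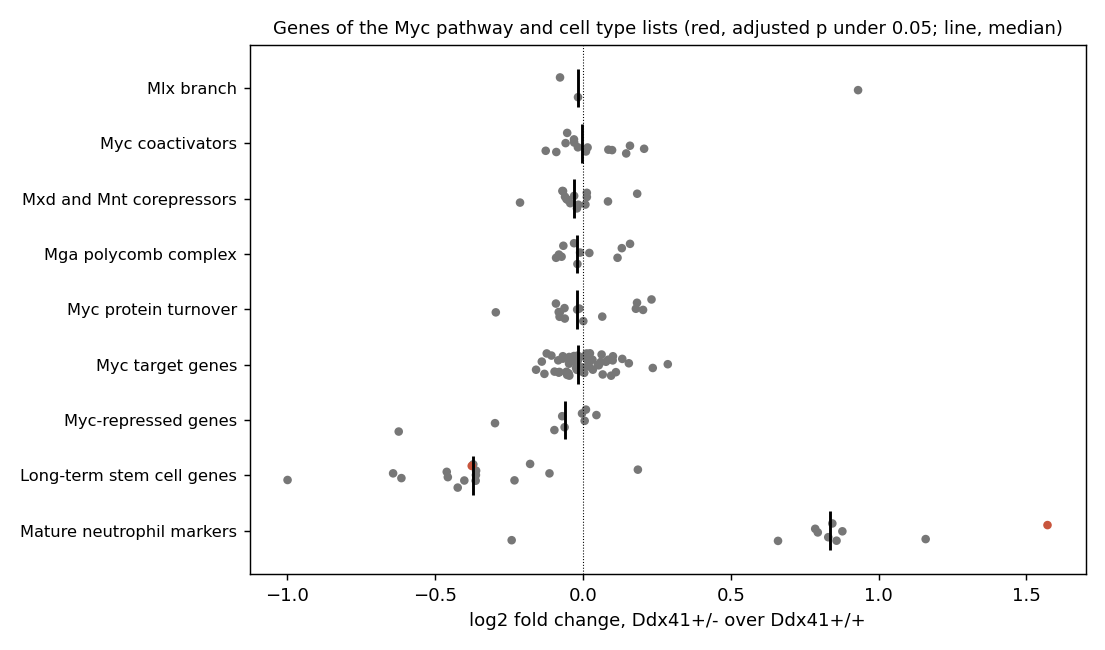
Log2 fold change in Ddx41+/- over Ddx41+/+ samples (x axis) of the tested genes of 9 lists, with each gene as a point, the median as a black line and an adjusted p under 0.05 in red. The Myc pathway lists lie around 0, whereas the long-term stem cell genes have a median of -0.37 and the neutrophil markers one of 0.84.

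Markers of cell types and states that an LSK sort could hold were set beside Mycn. All lists of such markers were chosen with earlier results of these data known, so that their counts are a description and not an independent test. Of 16 long-term stem cell genes, 15 had a log2 fold change below 0, against 51.2% of all genes tested, with a median of -0.37. At an unadjusted p under 0.05 there were 7 of them, against a share of 10.6% of all genes tested. The test was passed by Txnip alone, a redox regulator enriched in quiescent stem cells (at 77.1% of its level in Ddx41+/+ samples, edgeR adjusted p = 0.0479). The summed level of the 16 genes was 598.9, 546.3, 523.2 and 479.4 CPM in Ddx41+/+ replicates 1 to 4, against 421.5, 449.7 and 404.8 CPM in Ddx41+/- replicates 6 to 8. Txnip made the largest part of this sum, at 232.4 CPM on average in Ddx41+/+ and 179.1 CPM in Ddx41+/- samples. Ddx41+/+ replicate 1 was thus the highest and Ddx41+/- replicate 8 the lowest sample in both this sum and Mycn. Ddx41+/- replicate 7 was the highest of its genotype in both. The order of the other Ddx41+/+ samples differed. Replicate 2 was the lowest of them in Mycn, at 21.7 CPM, whereas replicate 4 was the lowest in the sum. Of 10 LSK identity markers, 9 were below 0 with a median of -0.31, and 6 had an unadjusted p under 0.05. Gata2, a stem cell transcription factor, passed (at 71.0%, edgeR adjusted p = 0.0471). Of the genes of the gate, Kit was at 100.3%. Ly6a was at 17.7 to 23.6 CPM in Ddx41+/+ samples and at 18.5, 30.5 and 13.3 CPM in Ddx41+/- replicates 6 to 8, so that its mean of 99.6% rests on replicate 7. The lists share genes and are not independent of each other, and none of their genes was at 0.

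Of 10 neutrophil markers tested, 9 had a log2 fold change above 0 (median 0.84). The same 9 had an unadjusted p under 0.05, against a share of 10.6% of all genes tested. The exception was Cxcr2, at 84.5% (edgeR adjusted p = 0.697). Only Mmp9, a granule protease, passed, at 296.4% (edgeR adjusted p = 0.00677). Summed over the list, the level was 741.0 to 1255 CPM in the Ddx41+/+ and 1335 to 2283 CPM in the Ddx41+/- samples, without overlap. The summed levels of macrophage (204.5 to 236.0 and 206.6 to 283.5 CPM), B-lineage (42.7 to 63.6 and 57.2 to 78.8 CPM), T and NK cell (224.2 to 276.4 and 255.5 to 284.2 CPM), late erythroid (28.05 to 50.9 and 39.9 to 63.7 CPM) and stroma and endothelium markers (147.7 to 169.8 and 162.2 to 178.1 CPM) overlapped between genotypes, and 0 genes of these 5 lists passed (at an unadjusted p under 0.05 there were 0, 3, 0, 1 and 1). Their median log2 fold changes were 0.23, 0.59, -0.098, 0.40 and 0.61, and all 8 macrophage and all 8 B-lineage genes were above 0. The T and NK cell sum was mostly Nkg7, at 253.4 and 264.9 CPM, and the stroma and endothelium sum mostly Pecam1, at 147.3 and 146.9 CPM, so that their overlap is that of single genes. Col1a1 and Col1a2, collagen genes of stroma, were highest in Ddx41+/- replicate 8, at 14.9 and 16.8 CPM. Col3a1, another collagen gene of the list, was highest in Ddx41+/+ replicate 2, at 2.10 CPM. The smallest p of the stroma and endothelium list was that of Cdh5, a gene of endothelium, at 0.523 and 0.139 CPM (edgeR adjusted p = 0.384). The part of the stem cell and neutrophil transcripts in the level of Mycn was not tested.

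**Figure D5:**
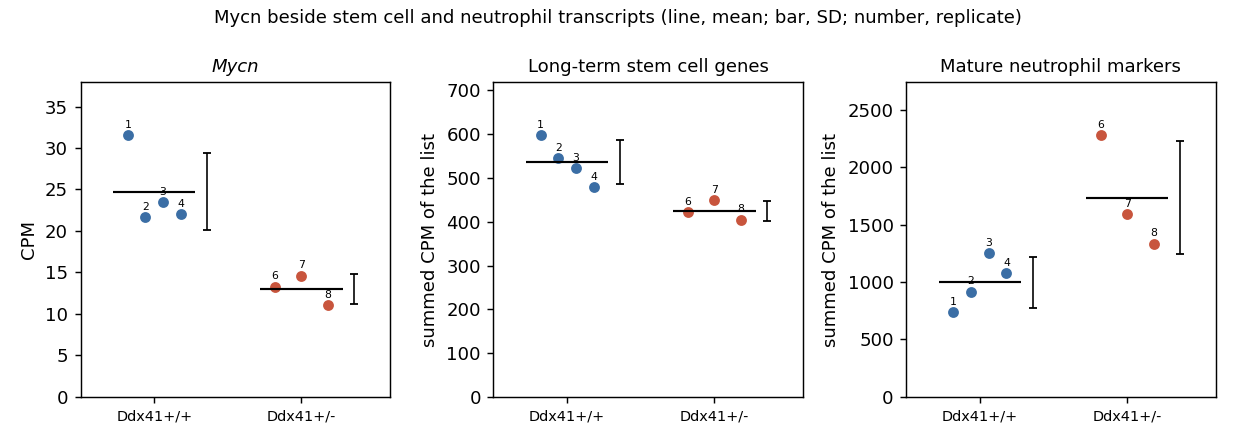
CPM of Mycn and summed CPM of the long-term stem cell genes and of the neutrophil markers (y axes, linear from 0) in each sample, with points numbered by replicate, the mean as a line and the SD as a bar. Mycn and the stem cell sum are lower, and the neutrophil sum is higher, in all 3 Ddx41+/- samples (red) than in the 4 Ddx41+/+ samples (blue).

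The genes most like Mycn over the 7 samples were sought by Pearson's r of log2 CPM among 9816 genes with a mean of at least 5 CPM. They were Fyb, an adaptor of hematopoietic cells (r = 0.981), the Notch modifier Lfng (0.973), Wwc2 (0.969), Paqr7 (0.967) and the kinase Csk (0.967). Each of the 5 was lower on average in Ddx41+/- samples, by log2 fold changes between -0.34 and -0.12, and none passed the test (edgeR adjusted p from 0.242 to 0.491). Lfng, for example, was at 25.8, 21.3, 21.8 and 23.4 CPM in Ddx41+/+ replicates 1 to 4 and at 18.03, 19.2 and 17.4 CPM in Ddx41+/- replicates 6 to 8. The difference between genotypes is part of these r values, and the 5 genes were picked as the highest of 9816. Myc followed other genes, first of all the death receptor Tnfrsf21 (r = 0.989), Nab2, a corepressor of Egr proteins (0.949), and the cytokine Tgfb1 (0.945), then Kcnq5 (0.933) and Alg3 (0.931). Tnfrsf21 was at 106.4 to 114.8 CPM in Ddx41+/+ samples and, like Myc, highest in replicate 7 (114.4 CPM) among Ddx41+/- samples. Between Mycn and Myc, r was 0.705.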

How the data were processed

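RNA-seq of LSK cells from 7 mice was analysed from the raw counts per gene that the authors deposited, with no normalization. Per the submitters' processing notes, FastQC 0.11.7, HISAT2 2.0.5, featureCounts 1.5.2 and mm10 were used. The labels name a stranded library kit and the study's methods an unstranded one with polyA selection, and the strand setting of the counting is not given in the sources used here. The deposited table names a heterozygous library 5 as removed, which was not analysed here.

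Counts were filtered with filterByExpr, scaled by TMM and fitted with edgeR 4.0.16 (robust quasi-likelihood test, R 4.3.3), and p-values were adjusted by Benjamini and Hochberg over 13340 genes, with 0.05 as the threshold. CPM are counts scaled to these library sizes. Total counts were 32234499 to 43751290. No 2 samples agreed within counting noise, with a chi-square per gene of at least 13.7. Exon lengths and positions were from GENCODE M21 (GRCm38, the assembly of mm10) and promoters from RefSeq (GRCm38.p6). Shares and ratios were compared by exact two-sided permutation tests over 35 relabelings, with a prior count of 0.5 for ratios.

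The members and lists were chosen with earlier results of these data known. Genes named were the members, Ddx41, in each list those that passed or else at most 3 with the smallest p, and the 5 most like Mycn and Myc by Pearson's r. Kit, Ly6a, Nkg7, Ncr1, Klrb1c, Cd3e, Cd8a and the globin genes were named to check the sort, and Cxcr2 as the exception in its list. Ncl, Fbl and Nop56 were named as examples of the targets, and Pecam1 as the largest part of its sum. Col1a1 and Col3a1 were named beside Col1a2. Cip2a and Epb42 were matched by older symbols, and Ly6g and Trac were not matched. The fit was tested on simulated data. Alternatives were other scalings and filters, DESeq2 1.42.0, limma-voom (limma 3.58.1) and leaving out each sample. The genotypes share no replicate number, so that samples were not paired.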

Additional observations from a re-analysis of the deposited data

Results flagged for a closer look

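Of 38 values examined among the 4 Ddx41+/+ samples by Dixon's ratio (the gap of an extreme sample to its neighbour over the whole range), 4 passed the 95% critical value for 4 samples, and chance gives 1.9, or about 1 in 20. Mxd1 had a ratio of 0.898, with replicate 4 at 29.5 CPM and the nearest sample at 24.7 CPM. The log2 ratio of Mycn to Max had one of 0.911, with replicate 1 at -1.86 and the nearest sample at -2.40. The log2 ratio of Mycn to Mxi1 had one of 0.880, with replicate 1 at -0.92 and the nearest sample at -1.52. The summed level of the Mlx branch had one of 0.842, with replicate 3 at 174.4 CPM and the nearest sample at 191.1 CPM.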

How the results depend on the processing

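Mycn was lower with an adjusted p under 0.05 in 16 of 17 alternatives, and the adjusted p ranged from 2.70e-06 to 0.0924 over all 17. With 1 sample left out its log2 fold change was -1.03 to -0.79, and the number of members called was 0 to 1. The exception was the fit without Ddx41+/- replicate 8 (log2 fold change -0.83, edgeR adjusted p = 0.0924). The other 9 members were not called in any of the 17. The sign of the log2 fold change turned for Max (without Ddx41+/+ replicate 3 or Ddx41+/- replicate 8), Mxd3 (without Ddx41+/- replicate 6) and Mxd4 (without Ddx41+/+ replicate 1 or Ddx41+/- replicate 6). Over all genes 29 were called, against 15 with library totals only (6 higher and 9 lower, where TMM gave 16 higher and 13 lower), 91 with no filter, 156 with DESeq2, 10 with limma-voom, 14 with a non-robust fit, and 7 (without Ddx41+/+ replicate 2) to 41 (without Ddx41+/+ replicate 1) with 1 sample left out. The causes were not tested. A fit without Rn45s, chosen after seeing the data, called the same 29 genes. No Myc target gene was called in any of the 17 alternatives. No paired analysis was possible because the genotypes share no replicate number. Depth limits Mycl most, with 55 counts in its lowest sample.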
